A study of Homo sapiens with 2 samples.

Results

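The eicosanoid genes examined here encode the enzymes that turn arachidonic acid into prostaglandins and leukotrienes, with a pair of receptors for prostaglandin E2. They were chosen by gene symbol, and all 10 were found among the 46865 loci of the deposited count table. The table held 2 libraries of primitive macrophages, cells that resemble the embryonic forerunners of microglia, made from the wild-type human induced pluripotent stem cell line 1231A3 over 30 days. The Control library had no agonist named in its title or library name. The PNU282987 library was titled as treated with PNU282987, a compound that activates the α7 nicotinic acetylcholine receptor. The dose of 100 µM and the time of 12 hours recorded for it are not in that title. The series asked how gene expression in this microglia model differs after the agonist. The labels conflict: the sample titled with the agonist carries amyloid β as its treatment entry, while the protocol text, which names the agonist, is shared by both libraries. A vehicle for the Control cells was not stated, and both libraries come from the same cell line.

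Arachidonic acid is freed from membrane phospholipids by phospholipase A2. Cyclooxygenases, encoded by PTGS1 and PTGS2, convert it to prostaglandin H2, which PTGES turns into prostaglandin E2, a ligand of the cAMP-raising receptors encoded by PTGER2 and PTGER4. In the other branch the membrane protein FLAP, encoded by ALOX5AP, presents arachidonic acid to 5-lipoxygenase, encoded by ALOX5, and the resulting leukotriene A4 is hydrolysed by LTA4H to the chemoattractant leukotriene B4 or joined to glutathione by LTC4S. ALOX15 oxygenates arachidonic and linoleic acid at another carbon. Macrophages and granulocytes are known sources of both classes of mediator.

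The cyclooxygenase genes are the textbook pair of a constitutive and an inducible isoenzyme, so the 100 bases before their annotated starts are shown, from RefSeq on GRCh38.p14. PTGS1 has 2 annotated starts in that table, with windows at chr9:122370433-122370532 and chr9:122375202-122375301 on the plus strand. The PTGS2 window is chr1:186680424-186680523 on the minus strand. Capitals mark the motifs searched on both strands, which do not overlap each other. The TATA box was searched as TATAAA. The variant cAMP response element described in the human PTGS2 promoter was searched as TTCGTCA.
PTGS2: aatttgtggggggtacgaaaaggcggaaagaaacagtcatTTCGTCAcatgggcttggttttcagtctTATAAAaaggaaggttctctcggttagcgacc
PTGS1, first start: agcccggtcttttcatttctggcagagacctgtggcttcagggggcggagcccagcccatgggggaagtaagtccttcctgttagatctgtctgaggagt
PTGS1, second start: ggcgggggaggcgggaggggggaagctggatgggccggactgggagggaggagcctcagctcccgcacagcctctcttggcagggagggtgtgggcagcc
The PTGS2 window held the TATA box 32 bases and the response element 60 bases before the start, counted to the first base of each, and neither string was in the PTGS1 windows. Over the 35116 promoter windows of that length in the table, 4.99% held the TATA box string and 0.333% the response element string. GC content was 45% in the PTGS2 window, and 57% and 74% in the PTGS1 windows, against a median of 60% over all windows.

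The libraries held 39316475 reads in Control and 36134391 in PNU282987, and levels are given as CPM, the reads of a gene scaled to a common library total with TMM factors. Each group had 1 library, so that no replicate test exists, and a gene was called higher or lower by size. It had to differ by 2-fold or more, with an exact 95% counting interval that excludes equality and at least 1 CPM on average. Intervals in parentheses cover counting error only, not the spread between cultures. They are too narrow if the mates of a read pair were counted singly, which is not known. Of the 10 macrophage markers listed, all were compared, and their summed level was 6215 CPM in Control and 6044 CPM in PNU282987. Within that near-equal sum 6 of the 10 had a ratio under 1, among them CD68 at 1692 and 1176 CPM and C1QB at 480 and 256 CPM, none of them called lower, while CD14 and ITGAM were called higher. Markers listed for other cells had reads too. The 8 neutrophil markers summed to 867 and 709 CPM, most of it MPO with 22372 and 14858 reads, and the 10 mast cell, basophil and eosinophil markers to 112 and 79.3 CPM. The 6 mesenchymal markers summed to 2678 and 3024 CPM, the 5 endothelial markers to 152 and 106 CPM, the 4 epithelial markers to 103 and 99.4 CPM, the 6 megakaryocyte and platelet markers to 9.01 and 5.57 CPM, and the 5 pluripotency markers to 4.85 and 4.17 CPM, with POU5F1 at 0 reads in both. PECAM1 made up most of the endothelial sum, at 135 and 84.0 CPM, while CDH5 had 0.565 and 0.329 CPM. Most of the epithelial sum came from KRT8, at 57.9 and 51.4 CPM, and KRT18, at 29.9 and 29.2 CPM.

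ALOX5 was the eicosanoid gene that differed between the libraries by more than 2-fold. Its level was 3.42-fold higher in the PNU282987 library, while those of the other 9 genes lay within 1.5-fold of Control. All 10 genes had a mean of at least 1 CPM and so entered the comparison. The count of 1 higher and 0 lower among 10 stands beside a background of 2.96% of 14269 loci called higher and 2.81% called lower. Across all these loci 82.4% lay within 1.5-fold, against 9 of the 10 eicosanoid genes. At a 1.5-fold threshold ALOX5 was again the gene called, beside 8.77% of loci called higher and 8.66% lower, and at a 4-fold threshold no eicosanoid gene was called, beside 0.743% higher and 0.420% lower. The median log2 ratio of the PNU282987 to the Control library was 0.10 over the 10 genes and -0.01 over all loci compared.

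**Figure D1:**
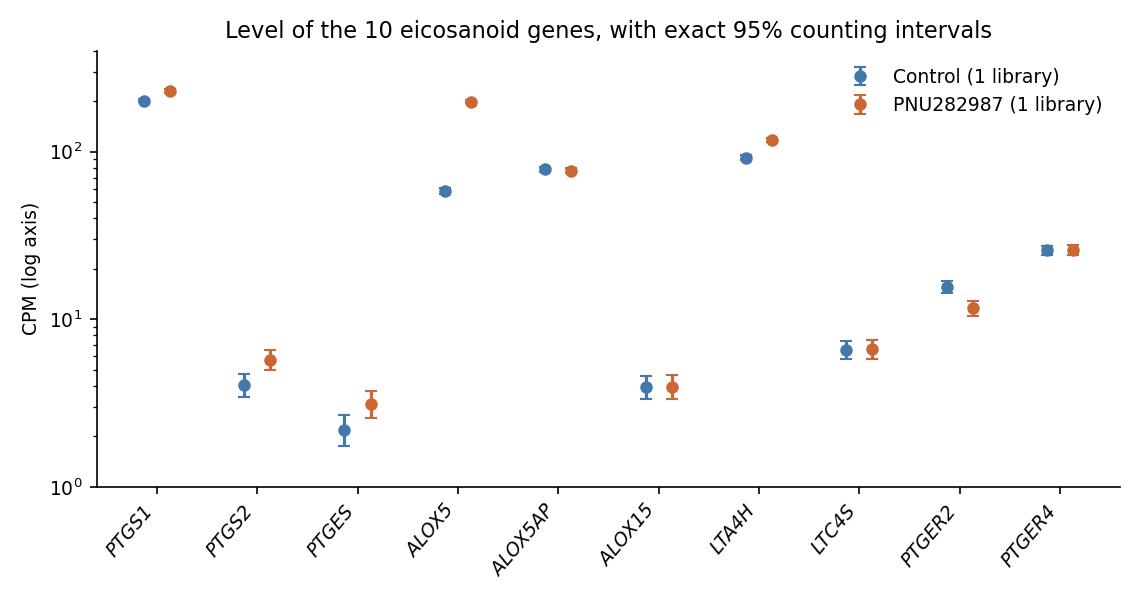
Level of the 10 eicosanoid genes in CPM on a log axis, blue for the Control library and orange for the PNU282987 library, with exact 95% counting intervals. ALOX5 goes from 58.0 to 199 CPM, while the points of each other gene lie close together.

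ALOX5 (chromosome 10, 45374216 to 45446117, GRCh38), the enzyme that starts leukotriene synthesis, had 2261 reads in the Control library and 7238 in PNU282987. These are levels of 58.0 CPM (55.7 to 60.5) and 199 CPM (194 to 203). The intervals are far apart, and the log2 ratio was 1.77 (1.71 to 1.84). By ratio ALOX5 ranked 141 among the 14269 loci compared and 80 among the 12570 protein-coding genes. Of the 2739 loci with a mean level within 2-fold of that of ALOX5, 15 had a ratio at least as high, ALOX5 included. The locus that overlaps ALOX5 had 0 and 1 reads.

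The partners of ALOX5 did not share a difference of that size. ALOX5AP (chromosome 13, 30713485 to 30764426) had 3065 and 2813 reads, or 78.7 and 77.2 CPM, a log2 ratio of -0.03 (-0.10 to 0.05). The FLAP gene therefore had near-equal levels in both libraries, with a counting interval that runs from 1.07-fold lower to 1.03-fold higher in PNU282987. LTA4H (chromosome 12, 96000753 to 96043520) had 3582 reads in Control and 4279 in PNU282987, 91.9 CPM (88.9 to 94.98) and 117 CPM (114 to 121). The leukotriene A4 hydrolase gene was thus slightly higher in PNU282987, by 1.28-fold (1.22 to 1.34), below the 2-fold rule. LTC4S (chromosome 5, 179793986 to 179796647) had 255 and 241 reads, or 6.54 CPM (5.77 to 7.40) and 6.61 CPM (5.80 to 7.50). The leukotriene C4 synthase levels overlapped, with a log2 ratio of 0.01 (-0.25 to 0.27). LTC4S has a GC-rich transcript, at 68.8% GC, and corrected for GC content and transcript length its log2 ratio was 0.34 (0.08 to 0.60), which excludes equality but stays under 2-fold.

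The balance between ALOX5 and its partners can be read within each library, where the scaling between libraries has no part. ALOX5 made up 42.5% (exact binomial interval 41.1 to 43.8) of the summed ALOX5 and ALOX5AP reads in Control and 72.0% (71.1 to 72.9) in PNU282987. Against LTA4H its share was 38.7% (37.4 to 40.0) in Control and 62.8% (62.0 to 63.7) in PNU282987. Per kilobase of transcript, the level of ALOX5 was 0.321 times that of ALOX5AP in Control and 1.12 times in PNU282987. Taken over ALOX5, ALOX5AP, LTA4H and LTC4S, the summed level was 235 CPM in Control and 400 CPM in PNU282987, and ALOX5 supplied 24.7% and 49.7% of these reads. ALOX15 (chromosome 17, 4630919 to 4641678), the other lipoxygenase among the 10 genes, was low in both libraries, with 153 and 144 reads, 3.93 and 3.95 CPM, and a log2 ratio of 0.01 (-0.33 to 0.35).

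**Figure D2:**
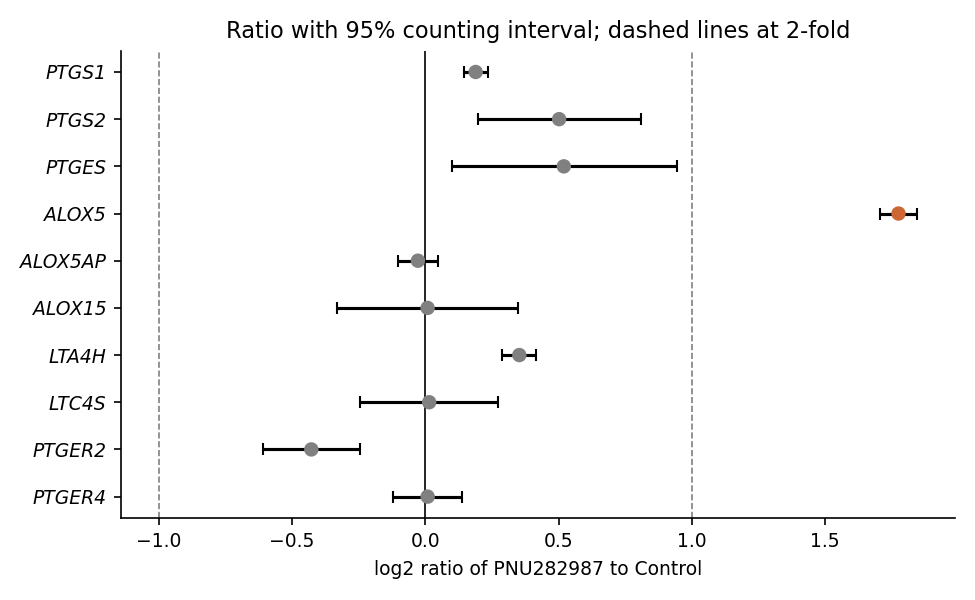
Log2 ratio of PNU282987 to Control for the 10 eicosanoid genes with 95% counting intervals, and dashed lines at 2-fold. ALOX5 at 1.77 is the point beyond 2-fold, and the other 9 lie between -0.43 and 0.52.

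Of the cyclooxygenase genes, PTGS1 carried nearly all the reads in both libraries. PTGS1 (chromosome 9, 122370533 to 122395703) had 7859 Control reads and 8382 PNU282987 reads, which are 202 CPM (197 to 206) and 230 CPM (225 to 235). It was the most expressed of the 10 genes, above 94.9% of all loci compared by mean level, and was 1.14-fold higher (1.11 to 1.18) in PNU282987. PTGS2 (chromosome 1, 186671791 to 186680423), whose window with the TATA box and the variant cAMP response element is printed above, had 157 and 208 reads, 4.03 CPM (3.42 to 4.71) and 5.71 CPM (4.96 to 6.54). The inducible gene was 1.42-fold higher (1.15 to 1.75) in PNU282987, within 2-fold, at a mean level above 20.9% of all loci. Corrected for GC content and length, its log2 ratio went from 0.50 to 0.24 (-0.06 to 0.55), which includes equality. PTGS2 took 1.96% (1.67 to 2.29) of the summed PTGS1 and PTGS2 reads in Control and 2.42% (2.11 to 2.77) in PNU282987, shares whose intervals overlap. Per kilobase of transcript the level of PTGS1 was 97.6 times that of PTGS2 in Control and 78.6 times in PNU282987.

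PTGES (chromosome 9, 129738349 to 129753042), the inducible microsomal prostaglandin E synthase, was the least expressed of the 10 genes in CPM. It had 85 reads in Control and 114 in PNU282987, 2.18 CPM (1.74 to 2.70) and 3.13 CPM (2.58 to 3.76). Its level was 1.43-fold higher (1.07 to 1.92) in PNU282987, an interval that excludes equality and stays under 2-fold. The share of PTGES in the summed PTGES and PTGS2 reads was 35.1% (29.1 to 41.5) in Control and 35.4% (30.2 to 40.9) in PNU282987, and these intervals overlap.

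The receptors of prostaglandin E2 were both expressed, and PTGER2 was the eicosanoid gene with the lowest ratio. PTGER2 (chromosome 14, 52314312 to 52328598), which encodes the EP2 receptor, had 608 reads in Control and 423 in PNU282987, 15.6 CPM (14.4 to 16.9) and 11.6 CPM (10.5 to 12.8). These levels did not overlap, and PTGER2 was 1.34-fold lower (1.19 to 1.53) in PNU282987, a log2 ratio of -0.43 that misses the 2-fold rule. PTGER4 (chromosome 5, 40679915 to 40746800), which encodes the EP4 receptor, had 1005 and 946 reads, 25.8 and 25.9 CPM, a log2 ratio of 0.01 (-0.12 to 0.14). PTGER4 overlaps a locus with 357 and 340 reads, and its log2 ratio was also 0.01 with those reads added. PTGER2 made up 37.7% (35.3 to 40.1) of the summed receptor reads in Control and 30.9% (28.5 to 33.4) in PNU282987.

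Counting intervals excluded equality for 6 of the 10 genes, with PTGS1, PTGS2, PTGES, ALOX5 and LTA4H higher and PTGER2 lower. That criterion alone says little at this depth, since it was met by 33.5% of all loci in the higher and 33.6% in the lower direction. Which genes met it also depended on the processing. Corrected for GC content and length, the PTGS2 interval (-0.06 to 0.55 in log2) included equality and the LTC4S interval (0.08 to 0.60) excluded it. Per kilobase of transcript, the order of levels in Control ran from PTGS1 (87.1 CPM per kilobase) through ALOX5AP (73.9), LTA4H (45.4), ALOX5 (23.7), LTC4S (9.83), PTGER4 (6.70), PTGER2 (6.55), ALOX15 (1.47) and PTGES (1.23) to PTGS2 (0.893). In PNU282987 ALOX5 stood second, at 81.1 CPM per kilobase between PTGS1 at 99.3 and ALOX5AP at 72.5. Neighbours whose counting intervals overlapped were PTGER4 and PTGER2 in Control, and in both libraries PTGES with ALOX15; PTGES also overlapped PTGS2 in Control, and ALOX15 overlapped PTGS2 in PNU282987. Transcript lengths are medians over the annotated isoforms, so this order depends on which isoforms the cells made.

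**Figure D3:**
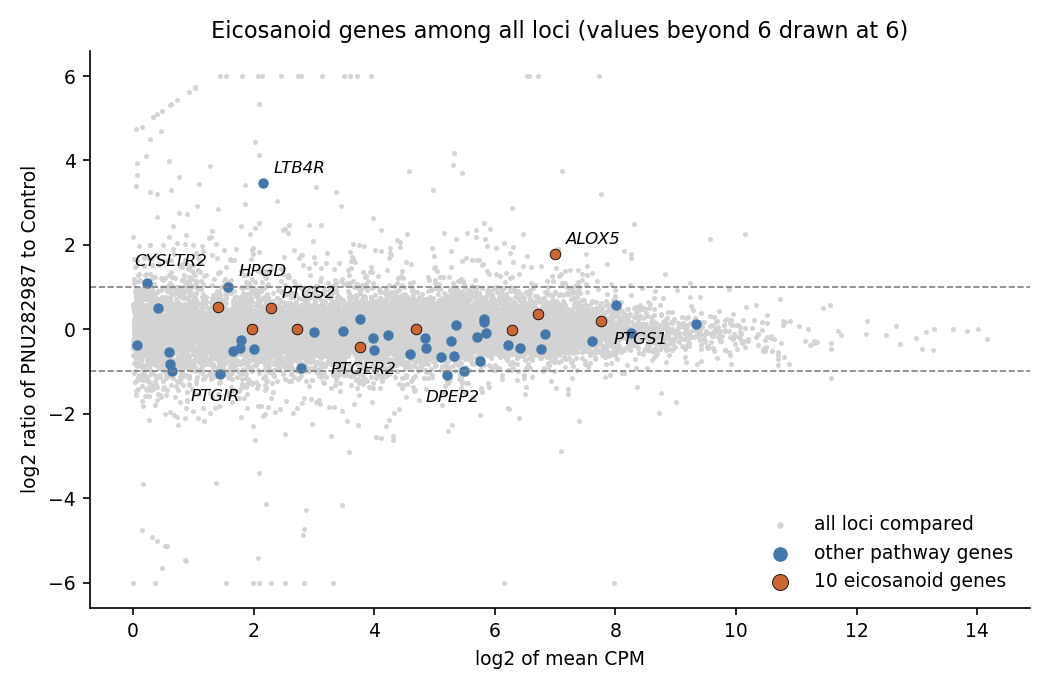
Log2 ratio of PNU282987 to Control against log2 of the mean CPM for the 14269 loci compared (grey), the other pathway genes (blue) and the 10 eicosanoid genes (orange), with dashed lines at 2-fold. ALOX5 lies near the upper edge of the cloud at its level and LTB4R lies higher still at a lower level, while most other coloured points lie inside the cloud.

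The wider pathway was read from 8 lists with 69 further genes, all found in the table, of which 42 had a mean of at least 1 CPM. Of these 42 genes 3 were called higher, 2 lower and 37 neither, beside 2.96% of all loci called higher and 2.81% called lower. Ratios under 1 were found for 32 of the 42, against 50.8% of all loci, and the median log2 ratio was -0.28, against -0.01 over all loci. The count was also 32 under the other scalings and 31 after correction for GC content and length.

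The leukotriene and lipoxin receptors held the largest ratio of the pathway. LTB4R (chromosome 14, 24311502 to 24318036), which encodes the high-affinity leukotriene B4 receptor BLT1, had 29 reads in Control and 299 in PNU282987. These are 0.744 CPM (0.498 to 1.07) and 8.20 CPM (7.30 to 9.19), an 11.0-fold higher level (7.52 to 16.7) that ranked 46 among the loci compared. LTB4R, like CYSLTR2, passed the expression filter through the PNU282987 library, where it was high. The adjoining LTB4R2, which encodes the low-affinity receptor and overlaps LTB4R, had 1 and 7 reads, and the log2 ratio of LTB4R was 3.46 alone and 3.45 with those reads added. CYSLTR2, a receptor of the cysteinyl leukotrienes, was called higher on 29 and 58 reads, with a log2 ratio of 1.10 (0.43 to 1.79). Corrected for GC content and length, it was 0.87, under 2-fold. CYSLTR1, the other cysteinyl leukotriene receptor, had 30.9 and 26.7 CPM, and FPR2, a receptor of lipoxin A4 and formyl peptides, had 9.01 and 4.77 CPM, a log2 ratio of -0.92 (-1.19 to -0.65) that misses the rule. The median log2 ratio of the 5 receptors compared was -0.21.

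Of the genes that form and process leukotrienes, 5 of 8 were compared and 1 was called lower, beside 2.81% of all loci. DPEP2, a dipeptidase that converts leukotriene D4 to E4, had 1942 and 864 reads, 49.8 CPM (47.6 to 52.1) in Control and 23.7 CPM (22.2 to 25.3) in PNU282987. It was called lower with a log2 ratio of -1.07 (-1.19 to -0.96), and was -0.91 after correction for GC content and length, under 2-fold. Of the 5 genes 4 had a ratio under 1, against 50.8% of all loci, with a median log2 ratio of -0.44. MGST3, a microsomal glutathione transferase, had 98.5 and 72.9 CPM, and COTL1, an actin-binding protein that binds 5-lipoxygenase, had 621 and 674 CPM. Of the other lipoxygenases, ALOX15B had 76 and 40 reads. ALOX12, the platelet-type enzyme, had 14 and 0 reads but overlaps an antisense locus with 151 and 175 reads, and as the use of strand in the counting is not stated, their reads may not be separable.

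Arachidonate release and the prostanoid synthases had no member past the 2-fold rule. In the release and handling list 9 of 10 genes compared had a ratio under 1, against 50.8% of all loci, with a median log2 ratio of -0.23. The exception was ACSL4, an acyl-CoA synthetase that favours arachidonic acid, with 207 and 310 CPM and a log2 ratio of 0.58 (0.54 to 0.62) that was 0.30 after correction for GC content and length. Counting intervals included equality for 3 of the 10 genes. With that correction MBOAT7 went from a log2 ratio of -0.08 to 0.16 (0.07 to 0.24), while the others under 1 stayed under 1. MGLL, the monoacylglycerol lipase, had 214 and 177 CPM. PLA2G4A, the cytosolic phospholipase A2 that frees arachidonic acid, had 19.7 and 17.8 CPM, and its interval included equality; it was named for its role after its value was seen, as were TBXAS1 and HPGDS. Among the synthases, PTGES3, a constitutively expressed cytosolic prostaglandin E synthase and co-chaperone, had 316 and 295 CPM, and AKR1B1, an aldo-keto reductase with prostaglandin F synthase activity, 126 and 91.6 CPM. The thromboxane synthase gene TBXAS1 had 84.0 and 65.4 CPM and the hematopoietic prostaglandin D synthase gene HPGDS 51.9 and 61.0 CPM. The median log2 ratio of the 7 synthases compared was -0.25.

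Of the other prostanoid receptors 3 of 7 were compared. PTGIR, the prostacyclin receptor, had 143 reads in Control and 64 in PNU282987, 3.67 and 1.76 CPM, and was called lower with a log2 ratio of -1.06 (-1.51 to -0.63). Corrected for GC content and length, its log2 ratio was -0.82 (-1.27 to -0.38), under 2-fold. PTGIR overlaps CALM3, which had 17817 and 13005 reads, and with those reads added the log2 ratio was -0.36, a sum that follows the far larger locus. PTGDR2, a prostaglandin D2 receptor of eosinophils and basophils, had 70 and 45 reads. Its log2 ratio of -0.54 (-1.11 to 0.02) had an interval that includes equality. PTGDR2 overlaps a locus with 1090 and 1106 reads, and with those reads added the log2 ratio was 0.08, a sum that again follows the larger locus. In the inactivation and transport list, HPGD, the dehydrogenase that inactivates prostaglandins, was called higher on 77 and 145 reads, 1.98 and 3.98 CPM. Its log2 ratio of 1.01 (0.60 to 1.43) lay at the edge of the rule, and was 0.91 after correction for GC content and length and 0.98 after thinning the deeper library. The exporters ABCC1, at 119 and 109 CPM, and ABCC4, at 39.7 and 42.5 CPM, lay within 1.5-fold. Of the epoxyeicosanoid enzymes 2 of 7 were compared, EPHX1, an epoxide hydrolase, with 59.9 and 30.1 CPM and a log2 ratio of -0.99 that was -0.51 once the reads of TMEM63A, which it overlaps, were added, and CYP2U1 at 3.70 and 2.61 CPM.

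**Figure D4:**
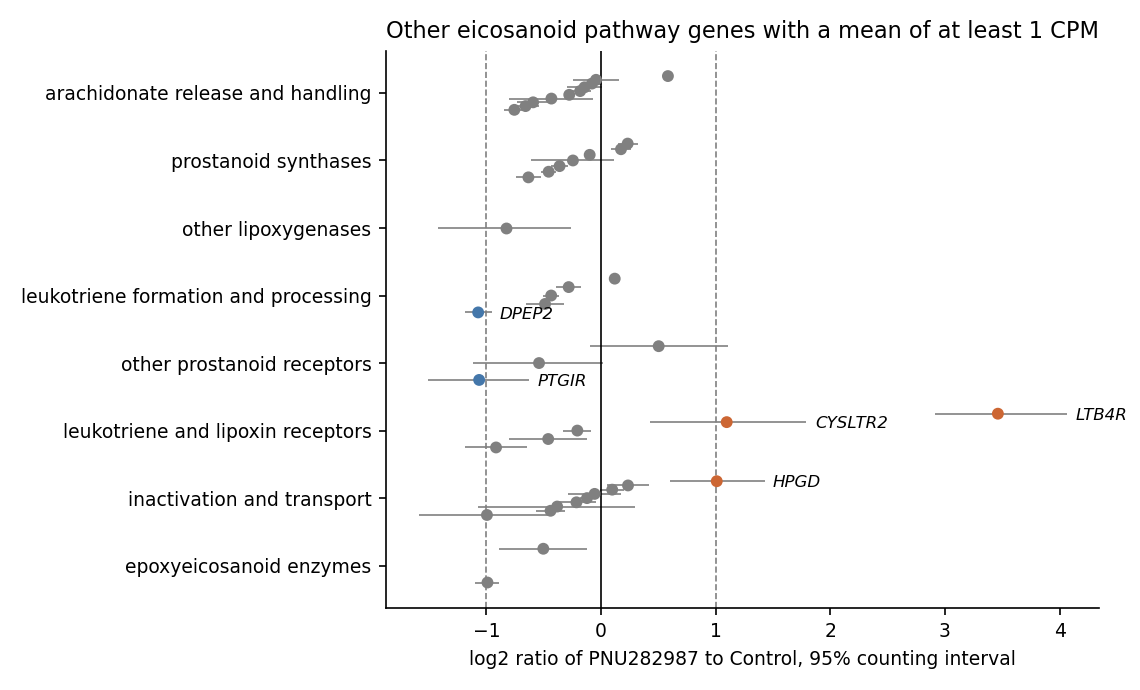
Log2 ratio of PNU282987 to Control with 95% counting intervals for the 42 other pathway genes with a mean of at least 1 CPM, grouped by role, with orange for genes called higher, blue for genes called lower and dashed lines at 2-fold. LTB4R at 3.46 stands apart, and 32 of the 42 points lie left of 0.

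Several of these genes are also used by granulocytes, whose markers differed between the libraries. In bulk RNA fewer cells of a type and less RNA per cell cannot be told apart. Of the 8 neutrophil markers 6 had a ratio under 1, with FCGR3B at 1357 and 592 reads and S100A12 at 887 and 389 reads called lower, and CXCR2 called higher at 207 and 691 reads. Of the 10 mast cell, basophil and eosinophil markers 8 were compared and 6 of these had a ratio under 1, with none called; PRG2 had 1752 and 1155 reads and CLC 1388 and 930. The granulocyte colony-stimulating factor receptor gene CSF3R had 116 and 191 CPM. Without MPO, a sum chosen after seeing the data, the other 7 neutrophil markers came to 292 CPM in Control and 301 CPM in PNU282987. That near-equal sum mixes opposite differences. CSF3R and CXCR2 had ratios above 1, with log2 ratios of 0.71 and 1.84. The ratios of ELANE, AZU1, PRTN3, FCGR3B and S100A12 were under 1, at log2 values between -0.63 and -1.10. Ratios under 1 in the neutrophil list were therefore not confined to MPO. The part of these cells in the values of ALOX5, LTB4R, CYSLTR2, LTC4S and ALOX15 was not tested. In the macrophage list CD14 and ITGAM were called higher, with log2 ratios of 2.48 and 1.78, while the median of the 10 markers was -0.27.

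**Figure D5:**
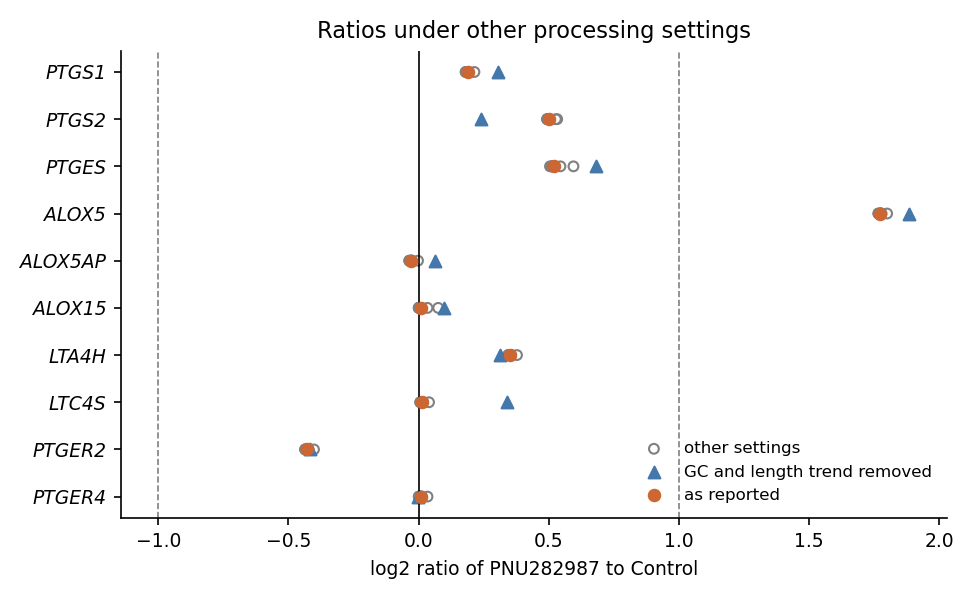
Log2 ratio of PNU282987 to Control for the 10 eicosanoid genes as reported (orange) and under 9 other settings, with blue triangles for the correction for GC content and length and open circles for the rest. ALOX5 stays between 1.77 and 1.89, and LTC4S and PTGS2 move most with that correction, to 0.34 and 0.24.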

How the data were processed

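Per the file headers, the values the authors deposited are read counts, and they are whole numbers without normalization. The submitters' processing notes name HISAT2 2.1.0 and StringTie 2.1.3b, FastQC 0.11.7 and Trimmomatic 0.38, edgeR, and the build GRCh38, with no order or settings. How strand, multi-mapping reads and mates were counted is not given in the sources used here. More loci had 2 reads than 1 read (958 against 818 in Control, 979 against 817 in PNU282987), so mates may have been counted singly; halved counts were tried. The PNU282987 library was grouped by its title.

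Totals were scaled with TMM factors of 0.991 and 1.01 (edgeR 4.0.16, R 4.3.3), and CPM, ratios and exact Clopper-Pearson and Poisson 95% intervals were computed with Python 3.11.15 and SciPy 1.17.1. A count of 0 entered a ratio at a floor of 3 reads, 0.0770 CPM in Control and 0.0823 CPM in PNU282987. The loci compared had a mean over both libraries of at least 1 CPM. The script was tested on simulated counts. Positions come from RefSeq (GRCh38.p14), and lengths and GC content from GENCODE release 29, known for 92.3% of the loci compared. Named were all 10 genes, each further pathway gene past the 2-fold rule and the 2 most expressed of each list. Outside that rule, PLA2G4A, TBXAS1 and HPGDS were named for their roles. LTB4R2 was named for its overlap with LTB4R, and MBOAT7 for its change of direction with the GC and length correction. The genes and lists were chosen with earlier results of these data known. Genes of like pattern were not sought, since with 2 libraries a pattern is a single ratio.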

Additional observations from a re-analysis of the deposited data

How the results depend on the processing

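ALOX5 passed the 2-fold rule under all 9 other settings of scaling, filter, depth and correction, with log2 ratios of 1.77 to 1.89, also with a 1.5-fold threshold and with the whole interval beyond 2-fold. With a 4-fold threshold 0 of the 10 genes were called higher. None of the 10 genes was called lower under any of the 12 alternatives. Of the other pathway genes, the 3 called higher became 0 with a mean of at least 10 CPM, and 1 when corrected for GC content and length, with a 4-fold threshold and with the whole interval beyond 2-fold. They were 2 with the deeper library thinned and 4 with the reads of overlapping loci added. The 2 called lower became 5 with no CPM filter and at least 10 reads, 1 with a mean of at least 10 CPM, 10 with a 1.5-fold threshold, and 0 with that correction, a 4-fold threshold or the whole interval beyond 2-fold. They were 3 with upper quartile factors, DESeq2 1.42.0 size factors or halved counts. LTB4R kept a log2 ratio of 3.42 to 3.61. The log2 ratio of PTGS1 was 0.31 and that of ALOX5AP 0.06 with that correction. The median of all loci moved by under 0.1 in log2 in each scaling. The cause of these shifts was not tested. Leaving out a library is not possible with 1 per group. No paired analysis was possible because neither group has a second library. Depth limits the low genes most: PTGES, with 85 and 114 reads, has an interval of 1.07-fold to 1.92-fold.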
